A study of Mus musculus with 9 samples.

Results

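The genes that write, copy and remove DNA methylation were examined in mouse embryonic fibroblasts (MEFs, connective tissue cells grown from embryos, here of the C57BL/6 strain) that had received a cyclin-dependent kinase inhibitor. The set was given by name and holds 10 of the 24062 gene rows of the count table: the DNA methyltransferases Dnmt1, Dnmt3a and Dnmt3b, their cofactors Uhrf1, Uhrf2 and Hells, and the demethylation genes Tet1, Tet2, Tet3 and Tdg. RNA-seq covered 9 libraries in 3 groups of 3. In the p21 group a lentivirus delivered p21, the product of Cdkn1a, and in the p16 group it delivered p16, a product of Cdkn2a. Cells of the EV group were infected with the empty control lentivirus. RNA was taken on day 4, all cells were labelled non-senescent, and neither the promoter driving the delivered gene nor the share of infected cells is given in the labels. The labels do not state that replicates were separate cultures or embryos, so the p-values measure the spread between these samples, which may be technical.

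Methylation of cytosine in CpG pairs is lost from the new strand at each DNA replication unless it is copied. UHRF1 binds the half-methylated DNA behind the replication fork and brings in DNMT1, which restores the mark, while the remodeller HELLS opens compact chromatin to the methyltransferases. DNMT3A and DNMT3B set new marks, the TET enzymes oxidise methylcytosine, and TDG cuts out the oxidised base so that repair can replace it with plain cytosine.

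The promoter windows below are shown because Dnmt1, Uhrf1 and Hells were the members whose transcripts passed the test in both the p21 and the p16 group, and Uhrf2 is the paralog of Uhrf1 that passed it in neither. RefSeq windows on GRCm38.p6, the build of the deposited data (mm10), run from 250 bases before to 50 bases after an annotated start, and all 10 genes matched, with 15 windows between them. Capitals mark a core that E2F factors are known to bind, searched on both strands and spelled TTCCCGC, or else TTGCCGC, or else TTCGCGC, or else TTGGCGC. Sequences are given 5′ to 3′ on the strand of the gene.
Dnmt1, downstream start, chr9:20952574-20952873, minus strand: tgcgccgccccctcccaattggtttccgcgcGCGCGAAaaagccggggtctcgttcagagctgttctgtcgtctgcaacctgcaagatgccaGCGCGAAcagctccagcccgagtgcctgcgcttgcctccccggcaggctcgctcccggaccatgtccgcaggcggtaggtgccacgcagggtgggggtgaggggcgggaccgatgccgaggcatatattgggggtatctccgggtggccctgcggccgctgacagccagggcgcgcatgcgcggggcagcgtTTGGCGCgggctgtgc
Uhrf1, upstream start, chr17:56303087-56303386, plus strand: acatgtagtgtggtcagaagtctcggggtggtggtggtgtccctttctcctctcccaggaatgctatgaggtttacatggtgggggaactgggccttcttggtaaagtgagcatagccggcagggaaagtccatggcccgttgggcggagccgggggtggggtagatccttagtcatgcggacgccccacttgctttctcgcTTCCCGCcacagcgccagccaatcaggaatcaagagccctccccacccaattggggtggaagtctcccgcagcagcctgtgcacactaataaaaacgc
Uhrf1, downstream start, chr17:56304063-56304362, plus strand: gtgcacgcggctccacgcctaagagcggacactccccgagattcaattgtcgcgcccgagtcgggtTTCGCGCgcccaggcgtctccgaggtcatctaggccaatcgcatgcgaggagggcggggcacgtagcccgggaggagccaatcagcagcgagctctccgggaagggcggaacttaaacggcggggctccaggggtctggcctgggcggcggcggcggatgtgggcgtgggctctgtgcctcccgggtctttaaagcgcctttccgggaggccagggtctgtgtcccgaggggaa
Hells, chr19:38930740-38931039, plus strand: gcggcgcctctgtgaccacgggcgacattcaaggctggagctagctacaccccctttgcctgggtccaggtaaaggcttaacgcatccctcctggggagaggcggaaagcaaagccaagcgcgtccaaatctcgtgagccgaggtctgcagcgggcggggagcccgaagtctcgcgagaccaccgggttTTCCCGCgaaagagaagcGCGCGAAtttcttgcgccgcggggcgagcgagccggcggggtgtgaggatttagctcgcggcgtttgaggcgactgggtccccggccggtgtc
Uhrf2, chr19:30030263-30030562, plus strand: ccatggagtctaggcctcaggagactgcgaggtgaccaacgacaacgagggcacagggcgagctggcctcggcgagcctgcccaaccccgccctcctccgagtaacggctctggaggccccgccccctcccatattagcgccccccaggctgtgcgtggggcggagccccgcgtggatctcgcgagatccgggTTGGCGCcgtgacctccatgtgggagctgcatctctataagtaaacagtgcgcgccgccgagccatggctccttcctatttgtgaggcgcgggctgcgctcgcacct

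Of the 3 windows of Dnmt1, the upstream and the middle one held no match, and the one shown held 3, which start at bases -219, -158 and 35 from the transcription start. The Hells window held 2, at -61 and -43, and each Uhrf1 window held 1, at -48 and -184. The Uhrf2 window held 1 as well, at -57, so a match was present both in genes that passed the test and in their paralog that did not. No match was found in the windows of Dnmt3a, Dnmt3b, Tet1, Tet2, Tet3 or Tdg. In all, 5 of the 15 windows held the core, against 9.57% of 32851 RefSeq windows of the same length, and against 22.5% of the 8701 windows with at least 20 CpG pairs. Of the 10 member windows with that many CpG pairs, 4 held it. The cell cycle homology region (spelled TTTGAA or else TTCGAA, either strand) was present in 19.2% of all windows. Among the windows with at least 20 CpG pairs it was present in 8.86%. It was found in the upstream window of Dnmt1, with 2 CpG pairs, and in that of Dnmt3b, with 30, at -199 and -128. Neither of these windows held an E2F core. These are letter matches in a window and were not tested as binding sites.

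Library totals ran from 44455730 to 63152239 counts, and 14223 genes were tested. Levels are in CPM, that is counts relative to library totals adjusted by TMM factors. Cdkn1a stood at 1429 to 1773 CPM in the p21 libraries, 367 to 379 in the p16 libraries and 350 to 375 in the EV libraries. Cdkn2a stood at 1576 to 1927 CPM in the p16 libraries, 44.0 to 48.1 in the p21 libraries and 34.7 to 42.2 in the EV libraries. The replicate 3 library of every group stood apart by Xist, at 181 to 251 CPM against at most 6.96 CPM elsewhere, and each member count given below was the same when only replicates 1 and 2 were fitted, unless stated. The p21 and p16 comparisons share the EV libraries and are not independent of each other. In bulk RNA, fewer cells that express a gene and less of its RNA per cell cannot be told apart.

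With p21, 6 of the 9 tested members fell and 0 rose relative to EV (edgeR quasi-likelihood test, adjusted over all genes, threshold 0.05), against 39.9% of all tested genes called, 19.8% higher and 20.1% lower. The 6 were Dnmt1, Uhrf1, Hells, Dnmt3a, Dnmt3b and Tet3, and in each of them every p21 library lay below every EV library, which held for 25.0% of all genes. The fit with the replicate number as a block called 7, adding Tet1, where it called 48.2% of all genes. With p16, 3 fell (Dnmt1, Uhrf1 and Hells) and 0 rose, where 11.4% of genes were called, 5.80% higher and 5.56% lower. In 6 members every p16 library lay below every EV library, as in 16.6% of all genes. The fit with the block called 5, where 21.4% of all genes were called. In p21 against p16, Dnmt1 and Uhrf1 were lower and 0 were higher, where 13.1% of genes were called, 6.15% higher and 6.91% lower. In 4 members every p21 library lay below every p16 library, as in 16.3% of all genes, and the block called 3 members, where 22.6% of all genes were called. No member was higher at an unadjusted p under 0.05 in any of the 3 comparisons, and DESeq2 and limma-voom also called 0 higher. The median log2 fold change of the 9 members was -0.34 with p21 and -0.28 with p16 against EV, and -0.12 in p21 against p16, while the median over all tested genes lay between -0.002 and 0.002. Scaled by library totals alone, 6 members fell with p21, 4 with p16 and 3 in p21 against p16. All genes then split into 2173 higher and 3734 lower with p21 (2816 and 2865 with TMM), 617 and 1235 with p16 (825 and 791), and 735 and 1254 in p21 against p16 (875 and 983).

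**Figure D1:**
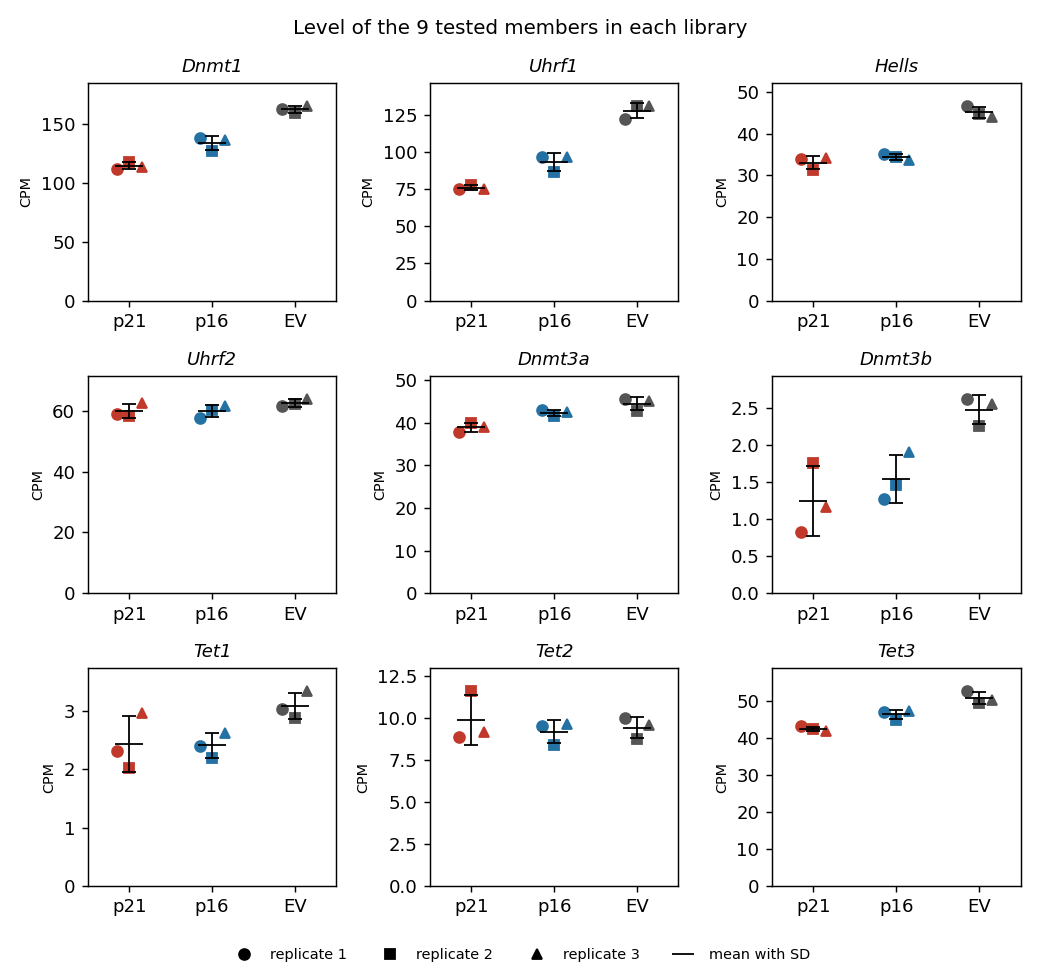
Level of each member in CPM on a linear axis that starts at 0, with 1 point per library, groups p21, p16 and EV from left to right, and bars for the mean and SD of 3 libraries. Dnmt1, Uhrf1 and Hells in the p21 and p16 libraries lie below all EV libraries, while the Uhrf2 and Tet2 points of the 3 groups overlap.

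Dnmt1, the maintenance methyltransferase (chromosome 9, 20907209 to 20959888, minus strand), stood at 112, 118 and 113 CPM in the p21 libraries, 138, 126 and 136 CPM in the p16 libraries, and 162, 159 and 165 CPM in the EV libraries. The 3 groups did not overlap, with p21 lowest and EV highest. Its level with p21 was 70.5% of that in EV (log2 fold change -0.50 ± 0.040 SE, edgeR adjusted p = 1.22e-06). With p16 it was 82.4% of EV (-0.28 ± 0.039, edgeR adjusted p = 0.00111), and p21 was lower than p16 (-0.22 ± 0.040, edgeR adjusted p = 0.00292).

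Uhrf1, which guides DNMT1 to newly copied DNA (chromosome 17, 56303321 to 56323486, plus strand), showed the same order. It stood at 75.1, 78.0 and 75.5 CPM in the p21 libraries, 97.1, 86.4 and 96.8 CPM in the p16 libraries, and 122, 131 and 131 CPM in the EV libraries. Its level with p21 was 59.5% of EV (log2 fold change -0.75 ± 0.050, edgeR adjusted p = 3.96e-07). With p16 it was 72.9% of EV (-0.46 ± 0.050, edgeR adjusted p = 0.000349), and p21 was again lower than p16 (-0.29 ± 0.050, edgeR adjusted p = 0.0023). Of its distinct 50-base stretches, 15.4% also occur in other transcripts, mainly the pseudogene Gm5648, and how such reads were counted is not given in the sources used here.

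Hells, the chromatin remodeller (chromosome 19, 38930915 to 38971051, plus strand), stood at 33.8, 31.2 and 34.1 CPM in the p21 libraries, 35.1, 34.3 and 33.7 CPM in the p16 libraries, and 46.6, 44.8 and 43.9 CPM in the EV libraries. Unlike Dnmt1 and Uhrf1, its p21 and p16 libraries overlapped. It fell with p21 (log2 fold change -0.45 ± 0.046, edgeR adjusted p = 1.18e-05) and with p16 (-0.39 ± 0.046, edgeR adjusted p = 0.000485). The difference between p21 and p16 did not pass (-0.06 ± 0.046, edgeR adjusted p = 0.477).

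Uhrf2, a paralog of Uhrf1 (chromosome 19, 30030513 to 30093722, plus strand), stood at 59.1, 58.2 and 62.6 CPM in the p21 libraries, 57.7, 60.3 and 61.8 CPM in the p16 libraries, and 61.5, 62.3 and 64.0 CPM in the EV libraries. All 3 groups overlapped. Its log2 fold change against EV was -0.06 ± 0.045 with p21 (edgeR adjusted p = 0.301) and -0.06 ± 0.045 with p16 (edgeR adjusted p = 0.41), so neither passed.

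Dnmt3a, a de novo methyltransferase (chromosome 12, 3806007 to 3914443, plus strand), stood at 37.9, 39.9 and 39.1 CPM in the p21 libraries, 43.0, 41.6 and 42.5 CPM in the p16 libraries, and 45.6, 42.7 and 45.2 CPM in the EV libraries. The p21 libraries lay clear of EV, and the p16 libraries overlapped with EV. It fell with p21 (log2 fold change -0.19 ± 0.043, edgeR adjusted p = 0.00342) and did not pass with p16 (-0.07 ± 0.043, edgeR adjusted p = 0.325) or in p21 against p16 (-0.12 ± 0.043, edgeR adjusted p = 0.0836).

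Dnmt3b, the other de novo enzyme and abundant in early embryos (chromosome 2, 153649450 to 153687730, plus strand), was scarce. It had 49, 77 and 61 counts (0.825, 1.75 and 1.16 CPM) in the p21 libraries, 67, 92 and 93 counts (1.27, 1.46 and 1.90 CPM) in the p16 libraries, and 145, 131 and 119 counts (2.62, 2.25 and 2.54 CPM) in the EV libraries. Every p21 and p16 library lay below every EV library, and the p21 and p16 libraries overlapped. The fall with p21 was the largest point estimate among the members but also the least precise (log2 fold change -1.01 ± 0.25, edgeR adjusted p = 0.00625). With p16 the change was -0.68 ± 0.24 and did not pass (edgeR adjusted p = 0.0901). It did pass with DESeq2 and with the replicate block (edgeR adjusted p = 0.0176). It also passed without p21 replicate 2, a library outside that comparison (edgeR adjusted p = 0.046). Of its 50-base stretches, 9.81% also occur in the paralog Dnmt3c.

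**Figure D2:**
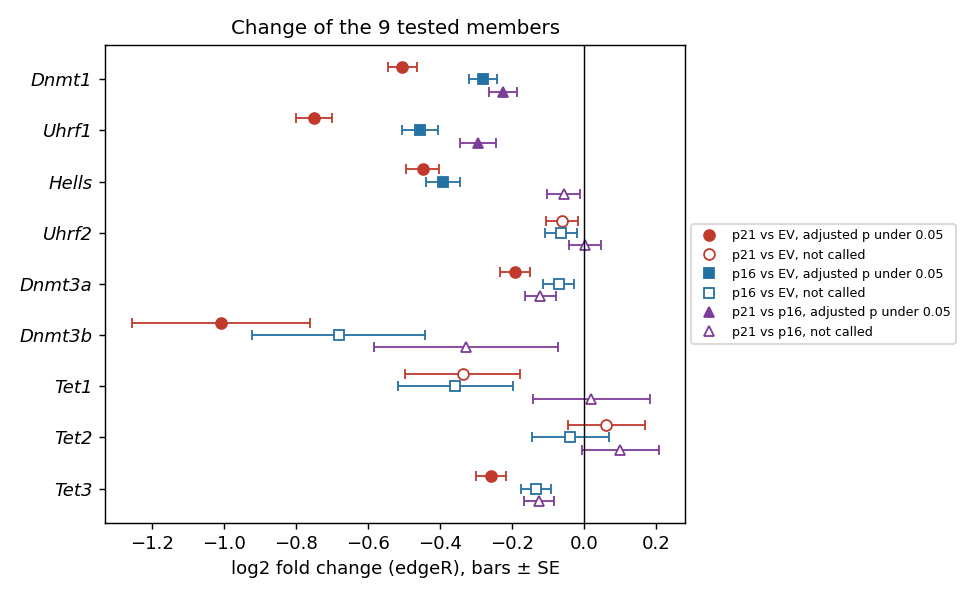
Log2 fold change of each tested member with its standard error, for p21 against EV, p16 against EV and p21 against p16 from top to bottom, on an axis where 0 is no change. Uhrf1 and Dnmt1 lie left of 0 in all 3 comparisons, Hells lies left of 0 against EV and near 0 between p21 and p16, and Uhrf2 and Tet2 lie near 0 throughout.

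Of the TET dioxygenases, Tet3 (chromosome 6, 83362373 to 83459084, minus strand) was the most abundant per exon length, at 43.1, 42.4 and 42.0 CPM in the p21 libraries, 46.9, 44.9 and 47.3 CPM in the p16 libraries, and 52.6, 49.6 and 50.3 CPM in the EV libraries. The groups did not overlap, with p21 lowest. It fell with p21 (log2 fold change -0.26 ± 0.042, edgeR adjusted p = 0.0004). With p16 (-0.13 ± 0.042, edgeR adjusted p = 0.06) and in p21 against p16 (-0.12 ± 0.042, edgeR adjusted p = 0.0719) it missed the threshold. With the replicate block both passed (edgeR adjusted p = 0.0255 and 0.0372), and DESeq2 also called the fall with p16.

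Tet2 (chromosome 3, 133463679 to 133545139, minus strand) stood at 8.88, 11.6 and 9.15 CPM in the p21 libraries, 9.50, 8.40 and 9.66 CPM in the p16 libraries, and 9.96, 8.76 and 9.55 CPM in the EV libraries. The groups overlapped, and neither p21 (log2 fold change 0.06 ± 0.11, edgeR adjusted p = 0.678) nor p16 (-0.04 ± 0.11, edgeR adjusted p = 0.868) passed against EV. The high p21 replicate 2 library set the sign of the p21 value, which was -0.06 without it.

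Tet1 (chromosome 10, 62804570 to 62908996, minus strand) was scarce, at 2.31, 2.02 and 2.96 CPM in the p21 libraries, 2.40, 2.19 and 2.63 CPM in the p16 libraries, and 3.03, 2.88 and 3.33 CPM in the EV libraries. The p16 libraries lay below all EV libraries, and p21 replicate 3 overlapped with them. Its change with p21 was -0.34 ± 0.16 and did not pass (edgeR adjusted p = 0.114), but passed without p21 replicate 3 (edgeR adjusted p = 0.0266) and with the replicate block (edgeR adjusted p = 0.0464). With p16 it was -0.36 ± 0.16 (edgeR adjusted p = 0.177).

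Tdg, the glycosylase that removes the oxidised base (chromosome 10, 82629828 to 82650799, plus strand), was listed with 1, 0 and 0 counts in the p21 libraries, 1, 2 and 1 in the p16 libraries, and 1, 0 and 1 in the EV libraries. All lie under the limit that a count of 0 allows, 3 counts, or 0.0477 to 0.0681 CPM depending on the library (counting error only), so no fold change is given and the gene was not tested. Of its distinct 50-base stretches, 41.2% also occur in other annotated transcripts, among them the copies Tdg-ps, Gm5597 and Gm9855, and 27.3% of its 100-base stretches do. Gm9855 was listed at 0 in every library. The part of shared sequence in the Tdg counts was not tested, so they are no measure of whether Tdg was expressed.

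Per kilobase of annotated exon, the members spanned a wide range in the EV libraries (mean ± SD, n = 3). Uhrf1 was highest at 30.1 ± 1.17 CPM per kilobase, followed by Dnmt1 at 22.0 ± 0.373, Uhrf2 at 7.29 ± 0.146 and Hells at 6.26 ± 0.188. Tet3 at 3.04 ± 0.0928 and Dnmt3a at 2.67 ± 0.0949 came next, before Tet2 at 0.559 ± 0.0361, Dnmt3b at 0.484 ± 0.0383 and Tet1 at 0.199 ± 0.0149. No neighbours in this order overlapped between EV libraries. With p21, Uhrf1 at 17.9 ± 0.375 CPM per kilobase stood closer to Dnmt1 at 15.5 ± 0.399, and the Dnmt3b libraries at 0.162 to 0.342 overlapped the Tet1 libraries at 0.131 to 0.192. The order also depends on the annotated exon length, which sums the exons of all isoforms.

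Ratios of members within a library do not depend on scaling between libraries. The ratio of Uhrf1 to Uhrf2 counts was 1.21 to 1.34 in the p21 libraries, 1.43 to 1.68 in the p16 libraries and 1.99 to 2.11 in the EV libraries. The ratio of Dnmt1 to Uhrf1 was 1.49 to 1.51 with p21, 1.41 to 1.46 with p16 and 1.22 to 1.32 in EV. The ratio of Dnmt1 to Dnmt3a was 2.90 to 2.95 with p21, 3.04 to 3.21 with p16 and 3.55 to 3.73 in EV. The summed Tet1, Tet2 and Tet3 counts relative to Dnmt1 were 0.477 to 0.485 with p21, 0.427 to 0.439 with p16 and 0.384 to 0.404 in EV. These 4 ratios overlapped in no comparison of groups. The ratio of Dnmt3a to Dnmt3b was 22.9 to 46.0 with p21 and 22.4 to 34.0 with p16, which overlap, and 17.44 to 19.01 in EV. Each of the 14 comparisons without overlap reached p = 0.1 in a two-sided exact permutation test of log2 ratios, the smallest that 3 against 3 allows, and 0.107 after adjustment over 15, so none could pass the threshold. The exact permutation p for Dnmt3a to Dnmt3b in p21 against p16 was 0.5.

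**Figure D3:**
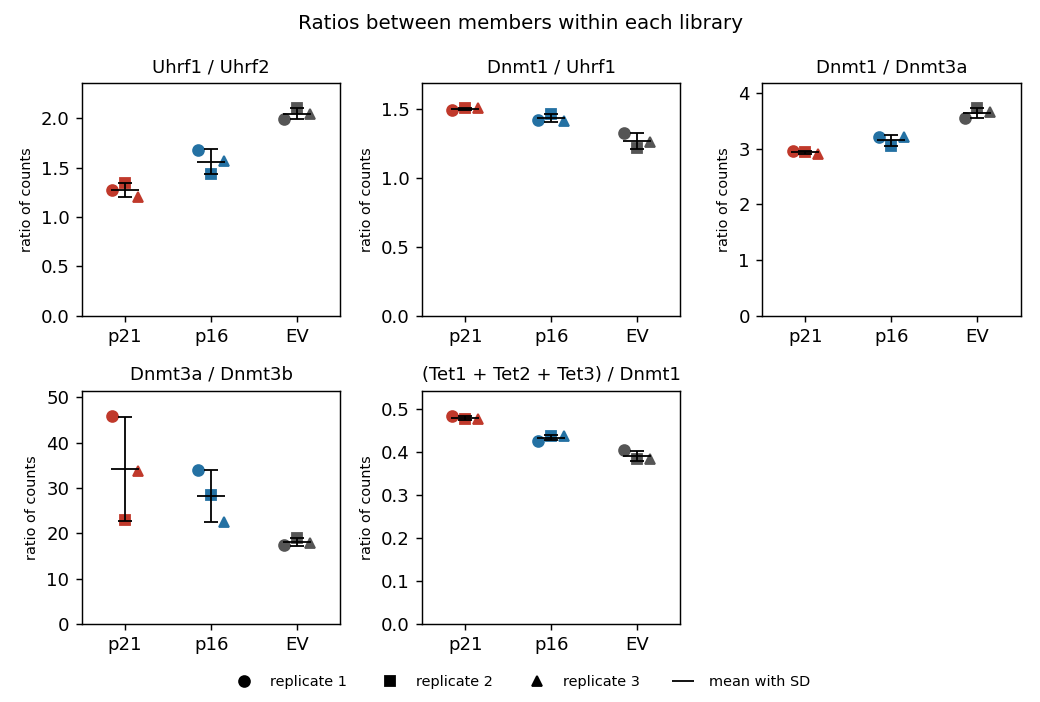
Within-library ratios of member counts, 1 point per library, with groups p21, p16 and EV from left to right and bars for the mean and SD of 3 libraries. The Uhrf1 to Uhrf2 ratio is 1.21 to 1.34 in the p21 libraries, 1.43 to 1.68 in the p16 libraries and 1.99 to 2.11 in the EV libraries.

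Maintenance methylation acts at the replication fork, so its genes were set beside 30 replication and nucleotide supply genes of S phase. All 30 of these fell with p21 (median log2 fold change -0.40) and 25 fell with p16 (median -0.26), and together they reached 1554 to 1591 CPM in the p21 libraries, 1715 to 1834 in the p16 libraries and 1985 to 2111 in the EV libraries. Mcm5, a subunit of the replicative helicase, averaged 78.1 ± 1.46 CPM with p21 and 113 ± 5.31 CPM in EV (SD, n = 3 each). Uhrf1 counts were 4.84 ± 0.0733% of the summed S phase counts with p21, 5.27 ± 0.388% with p16 and 6.23 ± 0.403% in EV, and both treated groups lay clear of EV. Dnmt1 was 7.26 ± 0.149% with p21, 7.53 ± 0.413% with p16 and 7.88 ± 0.37% in EV, with only p21 clear of EV. Hells was 2.10 ± 0.122% with p21, 1.94 ± 0.0238% with p16 and 2.19 ± 0.0349% in EV, with only p16 clear of EV. These shares are descriptions without a test. Ranked among the 30, Uhrf1 had 4 with a lower log2 fold change with p21 and 1 with p16, Dnmt1 had 9 and 12, and Hells had 11 and 3. No S phase gene had a lower value than Dnmt3b in either comparison with EV. Dnmt3a and Tet3 each had 27 below them with p21, and Uhrf2 and Tet2 had all 30. The part that a changed share of S phase cells has in the member values was not tested.

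Genes that work with the members were taken from lists. Of all tested genes, 20.1% fell and 19.8% rose with p21, and 5.56% fell and 5.80% rose with p16. With the replicate block 48.2% of all genes were called with p21 and 21.4% with p16, in either direction. Of 21 partners of maintenance methylation and heterochromatin, 15 fell with p21 (median log2 fold change -0.25) and 8 with p16 (median -0.12), or 13 with p16 with the replicate block. Suv39h2, a histone H3 lysine 9 methyltransferase, averaged 3.66 ± 0.15 CPM with p21 and 7.47 ± 0.546 CPM in EV (SD, n = 3 each, log2 fold change -1.03 ± 0.11, edgeR adjusted p = 1.74e-05). Cdca7, the partner that brings HELLS to chromatin, fell to 16.7 ± 0.336 CPM with p21 and 17.2 ± 0.324 CPM with p16, against 23.9 ± 1.75 CPM in EV. Trim28, a corepressor, fell with p21 (-0.28 ± 0.033) and with p16 (-0.11 ± 0.033, edgeR adjusted p = 0.0433). Cbx3, a heterochromatin protein, fell with p21 (-0.49 ± 0.060) and with p16 (-0.25 ± 0.059). Lig1, the replicative DNA ligase, fell with p21 (-0.47 ± 0.062) and with p16 (-0.37 ± 0.061). Usp7, which deubiquitinates DNMT1 and UHRF1, fell with p21 (-0.25 ± 0.035, edgeR adjusted p = 0.000135). With p16 it fell by 0.16 on the log2 scale, with an edgeR adjusted p of 0.0117, or 0.0584 without EV replicate 1.

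Of 11 TET cofactors and partners, 4 fell with p21 (median -0.16) and 1 with p16 (median -0.10), or 2 with p16 with the replicate block. Beside these and the repair counts below, edgeR called 39.9% of all tested genes with p21, 19.8% higher and 20.1% lower. With p16 it called 11.4%, 5.80% higher and 5.56% lower. Idh2, the mitochondrial dehydrogenase that makes the TET cosubstrate 2-oxoglutarate, averaged 87.4 ± 6.28 CPM with p21, 108 ± 3.26 CPM with p16 and 129 ± 6.27 CPM in EV. It fell in both (log2 fold change -0.56 ± 0.054 with p21, edgeR adjusted p = 7.02e-06, and -0.26 ± 0.054 with p16, edgeR adjusted p = 0.0098). Idh1, of the same list, passed with neither (-0.0065 ± 0.056 with p21 and -0.06 ± 0.056 with p16). Of 14 genes of base excision repair after demethylation, 6 fell and 1 rose with p21 (median -0.16), and 3 fell and 1 rose with p16 (median -0.12). With the replicate block 2 rose with p21. The gene that rose in both was Gadd45g, a stress-induced gene linked to active demethylation, at 156 ± 2.18 CPM with p21, 138 ± 3.27 CPM with p16 and 113 ± 3.94 CPM in EV. Parp1, which binds strand breaks, fell with p21 (-0.38 ± 0.040) and with p16 (-0.26 ± 0.040), and so did Ung, a uracil glycosylase (-0.43 ± 0.079 with p21 and -0.56 ± 0.080 with p16).

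Of 17 tested genes of methyl donor supply, 10 fell and 1 rose with p21 (median -0.17), and 6 fell with p16 (median -0.08). Among all tested genes, 20.1% fell and 19.8% rose with p21, and 5.56% fell with p16. With the replicate block 2 rose with p21. Shmt1, an enzyme of the folate cycle, averaged 8.29 ± 0.992 CPM with p21, 9.16 ± 0.356 CPM with p16 and 13.5 ± 0.494 CPM in EV. Slc19a1, the reduced folate carrier, fell with p21 (-0.41 ± 0.049) and with p16 (-0.31 ± 0.049). In the lists of partners, TET cofactors and donor supply where 0 rose, edgeR at an unadjusted p under 0.05, DESeq2 and limma-voom also counted 0 rises.

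The 11 genes listed as methyl-CpG readers, with family members such as Mbd3, Mbd5 and Mbd6 among them, did not move one way. Whether each of them binds the mark was not examined. With p21, 3 rose and 2 fell (median -0.02), where 19.8% of all tested genes rose and 20.1% fell. Library totals as the sole scaling gave 2 that rose and 3 that fell. Zbtb4, a zinc finger reader, averaged 54.7 ± 1.3 CPM with p21 and 40.2 ± 3.03 CPM in EV (log2 fold change 0.44 ± 0.058, edgeR adjusted p = 7.91e-05), and Zbtb38 also rose (0.21 ± 0.043). Mbd3, a subunit of the NuRD repressor complex, fell (-0.19 ± 0.032). With p16, 0 passed in edgeR or limma-voom, 1 was higher at an unadjusted p under 0.05, and 1 was higher by DESeq2 and with the replicate block (median -0.06).

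**Figure D4:**
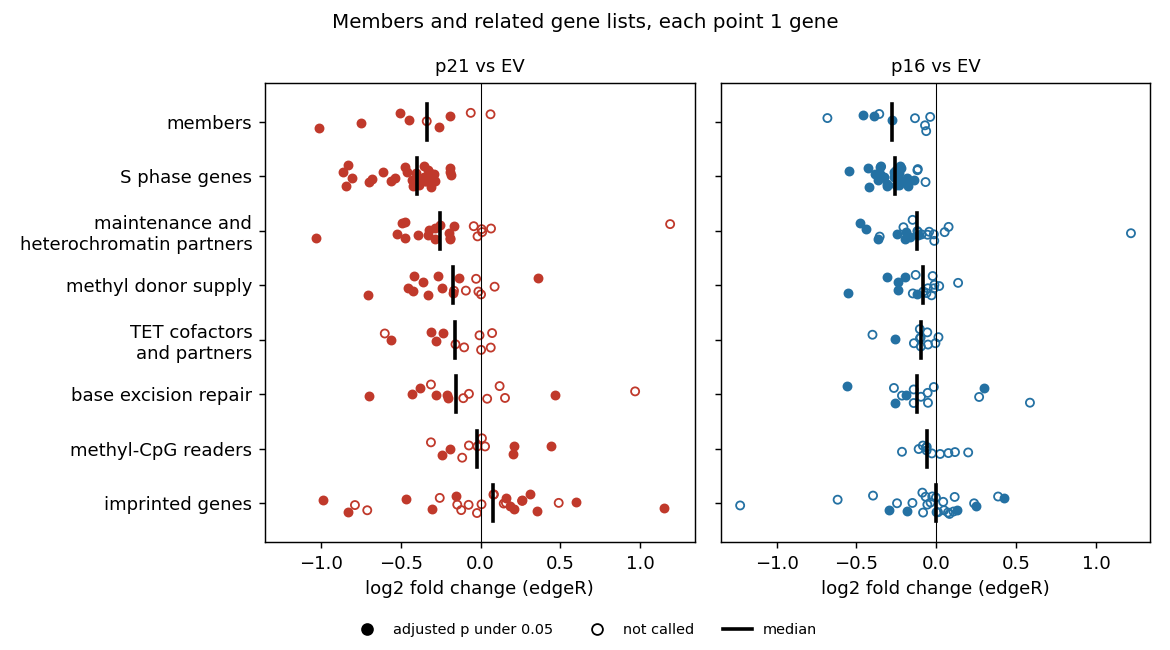
Log2 fold change of every tested gene in each list shown, for p21 against EV and p16 against EV, with 1 point per gene, filled where the edgeR adjusted p was under 0.05, and a bar at the median of the list. All 30 S phase genes lie below 0 with p21, while the genes listed as methyl-CpG readers lie on both sides of 0.

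Markers of other cell types were measured beside these results. Unlike the other CPM values here, the marker sums are relative to plain library totals, without TMM factors. The 10 fibroblast markers summed to 30670 to 32670 CPM in the p21 libraries, 31560 to 34050 in the p16 libraries and 28480 to 32360 in the EV libraries. Col1a1 and Col1a2 lead this sum. By edgeR, 4 of the 10 rose and 2 fell with p21, and 0 passed with p16. The 2 that fell were Pdgfra (log2 fold change -0.99 ± 0.18) and Col3a1 (-0.32 ± 0.072). The replicate block gave 5 higher and 3 lower with p21, and 5 higher and 1 lower with p16. DESeq2 called 2 higher with p16. The 17 macrophage and leukocyte markers in the table summed to 44.3 to 59.8 CPM with p21, 34.5 to 61.1 with p16 and 27.3 to 42.8 in EV, with 3 at 0 in all libraries. Of the 13 tested macrophage and leukocyte markers, 6 rose with p21 and 0 with p16 (edgeR), where 19.8% and 5.80% of all tested genes rose. With the replicate block 10 rose with p21 and 5 with p16, where 48.2% and 21.4% of all genes were called in either direction. With p16, DESeq2 called 2 higher, limma-voom called 0, and 3 were higher at an unadjusted p under 0.05. Summed epithelial markers were 17.0 to 18.1 CPM with p21, 14.6 to 15.5 with p16 and 13.9 to 16.9 in EV. Neural markers summed to 473 to 577, 435 to 490 and 406 to 492 CPM in the same order, endothelial markers to 8.28 to 10.3, 5.87 to 8.39 and 7.20 to 7.46 CPM, and pluripotent markers to at most 0.76 CPM. Their part in the member values was not tested.

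As a description, the genes whose log2 CPM ran most like each member over the 9 libraries were found among 9232 genes by Pearson's r. Dnmt1 ran close to Pds5b (r = 0.994) and Pole (r = 0.99), and Uhrf1 to Gar1 (r = 0.99), Rrp12 (r = 0.988) and Pole (r = 0.985). Hells was nearest to Slc16a1 (r = 0.985), Dnmt3a to Wdr5 (r = 0.988), Tet3 to Prps1l3 (r = 0.992), Uhrf2 to Ldhb (r = 0.968), Dnmt3b to Pprc1 (r = 0.968), Tet1 to Rpl22 (r = 0.967) and Tet2 to D17H6S53E (r = 0.92). The 9 libraries fall into 3 groups, so genes that differ between the groups correlate with one another.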

How the data were processed

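RNA-seq libraries were made with the TruSeq RNA v2 kit, which keeps no strand, per the labels' protocols. The authors deposited whole-number read counts by gene symbol, with no normalization. The submitters' processing notes name the build mm10 and the tools TopHat2 2.0.14, Bowtie2 2.2.6 and featureCounts 1.4.6. The annotation, strand setting and treatment of multi-mapping reads are not given in the sources used here. Without strand, reads of genes overlapping on opposite strands cannot be separated: this touches 6.83% of the exon bases of Tdg and under 0.8% of Dnmt3a and Tet2.

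Groups came from the lentivirus label. All 9 libraries entered one edgeR 4.0.16 quasi-likelihood fit by group in R 4.3.3, after filterByExpr (minimum count 10, minimum total 15) and TMM scaling. P-values were two-sided with Benjamini-Hochberg adjustment over 14223 genes and a threshold of 0.05. The biological coefficient of variation was 7.3%. Each SE is the size of the log2 fold change over the square root of F. Within-library ratios used an exact permutation test in scipy 1.17.1, adjusted over 15 comparisons. Lengths, coordinates and shared stretches came from GENCODE M21, and promoters from RefSeq. Likeness used log2 CPM with a prior count of 2.

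The members and lists were chosen with earlier results of these data known. Named list genes are up to 4 per list and comparison with the smallest adjusted p, with Idh1 added beside Idh2. Some genes that these rules name are not reported here. After removal of group means, same-numbered libraries of different groups had a Pearson's r of 0.126 to 0.361 over genes, against -0.246 to 0.106 for differently numbered ones. The numbers therefore pair the samples, and blocked values stand beside results where they change a member's call or move a printed count by over 1.5 times. Alternatives were RLE factors, library totals only, no filter, Cdkn1a and Cdkn2a removed, DESeq2 1.42.0, limma-voom (limma 3.58.1), only the groups compared, the replicate block, replicates 1 and 2 only, a glmTreat test for changes beyond 1.2-fold, and leaving out each library in turn.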

Additional observations from a re-analysis of the deposited data

How the results depend on the processing

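No member that passed the test lost its call or its direction under any alternative other than glmTreat, which asks for a change beyond 1.2-fold. Under glmTreat 4 members passed with p21 (Dnmt3a and Tet3 did not), 0 with p16 and 0 in p21 against p16, while over all tested genes it called 9.90%, 0.267% and 1.41%. With p16, DESeq2 called 5 members, with 1998 of all 14223 tested genes, and the replicate block called 5. Each of them added Dnmt3b and Tet3 to Dnmt1, Uhrf1 and Hells. The block also added Tet1 with p21 and Tet3 in p21 against p16, and changed no other member's call. Directions turned only for members that passed in no setting of that comparison. In p21 against p16, Uhrf2 was -0.0166 with library totals only, -0.000875 with only those groups and -0.00879 with replicates 1 and 2, and Tet1 was -0.0787 with replicates 1 and 2. Leaving out 1 library moved Uhrf2 between -0.0305 and 0.0232, Tet1 between -0.146 and 0.13 and Tet2 between -0.0262 and 0.172 there, Tet2 with p21 between -0.0646 and 0.134, and Tet2 with p16 between -0.0907 and 0.0238. The Dnmt3a to Dnmt3b ratio in p21 against p16 moved between -0.00597 and 0.497 (log2) in the same way. The depth limits Dnmt3b, Tet1 and above all Tdg.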

Other observations

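Gene classes known to depend on DNA methylation were counted as well. Of 20 germline genes listed as silenced by methylation, 6 passed the filter on low counts. Of these 6, 0 were called by edgeR, DESeq2 or limma-voom in any comparison. At an unadjusted p under 0.05, 0 were higher with p21 and 1 with p16. Their median log2 fold change was 0.31 with p21 (-0.33 to 0.66) and 0.33 with p16 (-0.08 to 0.996). Ddx4, Tdrd1, Stag3, Piwil2 and Rhox5 had at most 82 counts in any library, so the absence of calls does not show that they were unchanged. Tdrkh was not silent, at a mean of 10.5 CPM in EV and 11.7 CPM with p21. Of 27 tested imprinted genes, 8 rose and 5 fell with p21, and 3 rose and 2 fell with p16, beside 39.9% and 11.4% of all tested genes called. With the replicate block 12 rose and 8 fell with p21, and 6 rose and 5 fell with p16, beside 48.2% and 21.4% of all tested genes. Impact, an inhibitor of the GCN2 kinase, averaged 102 ± 4.24 CPM with p21, 80.0 ± 2.59 CPM with p16 and 67.2 ± 0.712 CPM in EV (SD, n = 3 each), and rose in both. Cdkn1c, which encodes the inhibitor p57, rose with p16 (log2 fold change 0.43 ± 0.058, edgeR adjusted p = 0.000968). It also rose with p21 (0.21 ± 0.059, edgeR adjusted p = 0.014). Nnat fell with p21 (-0.47 ± 0.065) and with p16 (-0.30 ± 0.065), and so did Peg10 (-0.30 ± 0.042 and -0.18 ± 0.041). Leaving out EV replicate 1, among other settings, ended the p16 calls of Nnat and Peg10.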
